A study of Mus musculus with 12 samples.

Results

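Hk2, Pfkl and Pdk1 encode 3 enzymes that set the pace of glycolysis and the fate of its product. They were compared between mouse fibroblasts, fibroblasts given doxycycline for 1 day, an iPS line made with Oct4 and Tet1, and ES cells. These are separate groups and not time points of 1 course. Each gene was chosen by its symbol, with earlier results of these data known. Each is read by 1 probe set that carries no other symbol, so 3 of the 9539 genes measured are described. Expression was measured on 12 Affymetrix whole-transcript arrays, 3 per group, and values are the authors' log2 levels.

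The iPS cells were the line OT#b, made with Oct4 and Tet1, at passage 10, with the background OG2-GFP/Rosa26-M2rtTA. R1 ES cells, of strain 129, were used at passage 20. The day-1 cells were fibroblasts derived from OT-iPSC mice, at passage 3, of the background OG2-GFP/Rosa26-M2rtTA, given doxycycline, which activates M2rtTA, in ES medium for 1 day. The fibroblasts were at passage 3 and no treatment is given for them. Their 3 arrays are labelled OG2-GFP with Rosa26-M2rtTA, Rosa26-M3rtTA and Rosa26-M4rtTA. No source used here says why these labels differ. Day-1 cells differ from fibroblasts in doxycycline, in their source and possibly in medium, since the fibroblasts' medium is not stated, and these cannot be told apart. The iPS and ES cells differ in strain, passage and derivation. Each pluripotent group is 1 line, grown on feeder fibroblasts that had been treated to stop division. A step to remove feeders is stated for ES cells. Since no label ties the arrays of a group to independent cultures, the p-values cover the spread among these arrays, which may be technical.

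Glycolysis turns glucose into pyruvate in the cytosol. Hexokinase 2, made from Hk2, traps glucose as glucose 6-phosphate and can dock on mitochondria. Phosphofructokinase, of which Pfkl encodes the liver-type subunit, carries out the committing step and is the main point of allosteric control. Pyruvate dehydrogenase kinase 1, made from Pdk1, phosphorylates and so inactivates the pyruvate dehydrogenase complex, which keeps pyruvate out of the citric acid cycle and leaves it for lactate. It is not the kinase of Pdpk1, which also bears the name Pdk1. Pluripotent stem cells are known for high glycolytic flux, and Hk2 and Pdk1 are textbook targets of the hypoxia-inducible factors.

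The RefSeq promoter windows of the 3 genes are shown because all 3 were at their lowest in day-1 cells. Each window spans 250 bases before to 50 bases after a transcription start of GRCm38.p6 and is written on the gene's own strand, 5′ to 3′. Capitals mark matches on either strand to ACGTG or GCGTG, the core letters of the hypoxia response element. Hk2 lies on the minus strand at chr6:82774405-82774704, Pfkl on the minus strand at chr10:78009758-78010057 and Pdk1 on the plus strand at chr2:71872974-71873273.
Hk2: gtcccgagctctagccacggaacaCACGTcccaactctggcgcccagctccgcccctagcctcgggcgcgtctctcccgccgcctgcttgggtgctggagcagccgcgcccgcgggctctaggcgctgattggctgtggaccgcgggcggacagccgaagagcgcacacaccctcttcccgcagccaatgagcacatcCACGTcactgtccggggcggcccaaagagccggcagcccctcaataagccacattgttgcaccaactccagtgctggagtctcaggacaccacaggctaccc
Pfkl: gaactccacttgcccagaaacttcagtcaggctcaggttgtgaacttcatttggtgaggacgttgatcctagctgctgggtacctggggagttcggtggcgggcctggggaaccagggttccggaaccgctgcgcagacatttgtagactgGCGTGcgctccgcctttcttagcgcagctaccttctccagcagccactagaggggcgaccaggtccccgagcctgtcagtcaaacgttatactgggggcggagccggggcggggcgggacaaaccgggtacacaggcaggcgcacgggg
Pdk1: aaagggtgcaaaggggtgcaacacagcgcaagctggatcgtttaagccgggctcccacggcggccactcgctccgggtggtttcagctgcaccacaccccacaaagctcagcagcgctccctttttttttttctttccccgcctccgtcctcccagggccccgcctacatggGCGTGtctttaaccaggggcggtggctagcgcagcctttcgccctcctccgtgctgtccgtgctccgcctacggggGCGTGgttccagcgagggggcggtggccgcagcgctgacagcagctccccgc

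The Hk2 window held ACGTG at 2 places, whose first bases lie 226 and 52 bases upstream of the start. The Pfkl window held GCGTG once, 99 bases upstream, and the Pdk1 window held it at 2 places, 78 and 2 bases upstream. Of all 32851 windows of this length, 19.6% held ACGTG, 32.4% held GCGTG and 43.8% held either. None of the 3 windows held CACGTG, the E-box read by Myc and Max, which contains ACGTG and was found in 7.15% of all windows. The GC box GGGCGG was found 3 times in Hk2, 3 times in Pfkl and 2 times in Pdk1, and in 35.7% of all windows. A second RefSeq window of Pdk1 held none of the 4 motifs. Such matches describe letters, and no binding was measured.

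The levels of each gene come first, with the order of the groups. Hk2 had log2 levels of 11.10, 11.09 and 11.15 in iPS cells and of 11.10, 10.89 and 10.99 in ES cells. It had 7.99, 7.92 and 8.04 in day-1 cells and 8.51, 8.50 and 8.44 in fibroblasts. The pluripotent arrays lay far above the other arrays without overlap, and the day-1 arrays lay just below the fibroblast arrays. Pfkl had 10.76, 10.69 and 10.79 in iPS cells and 10.78, 10.76 and 10.85 in ES cells. It had 9.34, 9.31 and 9.30 in day-1 cells and 10.34, 10.40 and 10.52 in fibroblasts. Here the day-1 cells stood alone at the bottom, and the fibroblasts came close to the pluripotent cells without overlapping them. Pdk1 had 8.99, 9.14 and 9.15 in iPS cells and 10.43, 10.26 and 10.30 in ES cells. It had 7.21, 6.83 and 7.02 in day-1 cells and 8.60, 8.94 and 9.14 in fibroblasts. ES cells were highest, iPS cells and fibroblasts overlapped, and day-1 cells were lowest. The 3 genes thus ran differently at the top of the range and had the same group at the bottom.

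**Figure D1:**
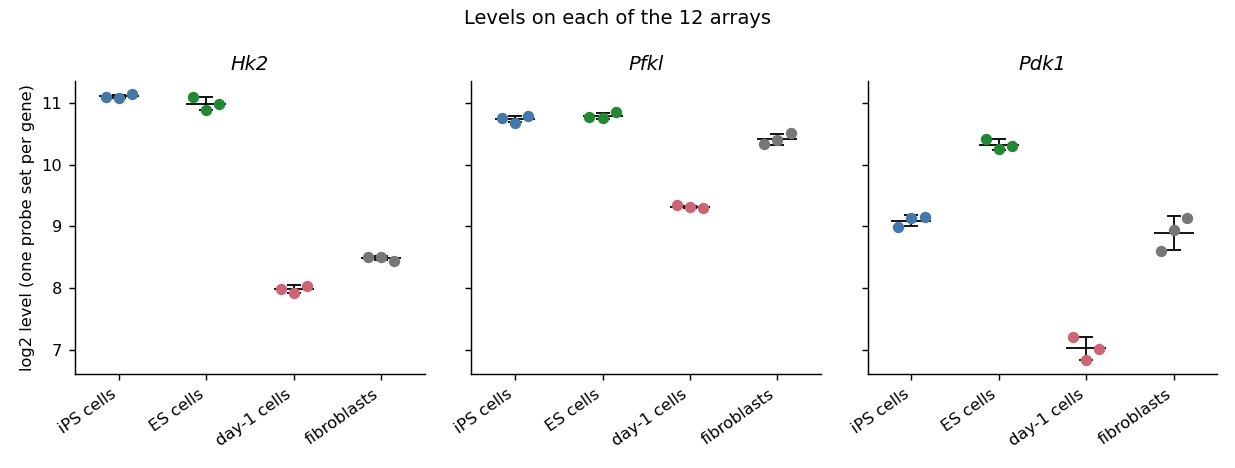
Log2 level of Hk2, Pfkl and Pdk1 on each array (points), with the mean and SD of the 3 arrays of a group (bars). Hk2 is near 11 in iPS and ES cells and near 8 in day-1 cells and fibroblasts, Pfkl is lowest in day-1 cells, and Pdk1 is highest in ES cells and lowest in day-1 cells.

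All day-1 arrays lay below all arrays of the other groups for 3 of 3 genes. The same held for 764 of the 9539 genes, or 8.01%. Since the 3 genes were chosen with earlier results of these data known, this share is no test of them. The deposited table seems to hold varying probe sets only, since even the least variable one spans 1.42-fold between its lowest and highest array. That the 3 genes differ between some groups is therefore partly given by their presence in it. Their own spans were 9.33-fold for Hk2, 2.93-fold for Pfkl and 12.1-fold for Pdk1.

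The comparison of day-1 cells with fibroblasts takes doxycycline, source and possibly medium together, so it does not isolate 1 day of induction. Here and below, rose and fell mean called higher or lower between separate groups. Pdk1 and Pfkl were clearly lower in day-1 cells and Hk2 was somewhat lower. Pdk1 had 7.02 ± 0.19 (SD, n = 3) in day-1 cells, against 8.90 ± 0.27 in fibroblasts. It was 3.68-fold lower (95% interval 3.03 to 4.46), a log2 difference of -1.88 ± 0.13 (SE) with a limma adjusted p of 1.07e-07. Counted from the most negative difference, Pdk1 was number 135 of 9539 genes. Pfkl had 9.32 ± 0.02 in day-1 cells, against 10.42 ± 0.09 in fibroblasts, with a difference of -1.10 ± 0.07 (limma adjusted p = 3.92e-08). Hk2 had 7.98 ± 0.06 in day-1 cells and 8.48 ± 0.03 in fibroblasts. Its difference of -0.50 ± 0.07 had a limma adjusted p of 4.97e-05 but stayed under the fold minimum. A call here needs an adjusted p under 0.05 and a difference of at least 1 on the log2 scale, and 2 of the 3 genes were called, both lower. Over all genes 7.79% were called, 3.46% higher and 4.33% lower. In such bulk RNA, fewer cells of a type and less RNA per cell cannot be told apart.

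Pou5f1, which encodes Oct4 and was read as a check of induction, stood at 11.79 ± 0.06 in day-1 cells and at 5.04 ± 0.18 in fibroblasts. This gap also takes doxycycline, source and possibly medium together. Of 15 fibroblast markers, 2 fell in day-1 cells, Dcn and Pdgfra, and the mean log2 level of the list per array was 10.94 to 11.02 in day-1 cells and 11.14 to 11.37 in fibroblasts. Of 8 measured macrophage markers, 3 fell and 1 rose, and their mean was 7.10 to 7.27 in day-1 cells and 7.32 to 7.55 in fibroblasts. In this comparison 3.46% of all genes rose and 4.33% fell. The part of either list in the lower Pdk1 and Pfkl levels was not tested.

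The comparison of iPS cells with fibroblasts sets the reprogrammed line against the starting cell type. Hk2 rose strongly, Pfkl was slightly higher and Pdk1 overlapped between the groups. Hk2 had 11.11 ± 0.03 in iPS cells and 8.48 ± 0.03 in fibroblasts, a 6.18-fold rise (95% interval 5.57 to 6.85; log2 difference 2.63 ± 0.07, limma adjusted p = 1.44e-12). Pfkl had 10.75 ± 0.05 in iPS cells and 10.42 ± 0.09 in fibroblasts, and its difference of 0.33 ± 0.07 (limma adjusted p = 3.81e-04) was under the fold minimum. Pdk1 had 9.10 ± 0.09 in iPS cells and 8.90 ± 0.27 in fibroblasts, a difference of 0.20 ± 0.13 (limma adjusted p = 0.152) with a 95% interval of -0.08 to 0.48. Without fibroblast replicate 1, the lowest fibroblast array, it was 0.05. Of the 3 genes 1 was called, where 51.3% of all genes passed the same rule, 21.8% higher and 29.6% lower. The median gene lay at -0.35 in this comparison, and relative to it Hk2 was at 2.97, Pfkl at 0.68 and Pdk1 at 0.55. With each array centred on a common median 28.7% of genes were called higher, the Pdk1 difference became 0.44 and its limma adjusted p 0.00501.

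The comparison of ES cells with fibroblasts gives the same contrast for an established line, with the fibroblast arrays shared. Hk2 and Pdk1 rose, and Pfkl was slightly higher. Hk2 had 10.99 ± 0.10 in ES cells and 8.48 ± 0.03 in fibroblasts, a 5.69-fold rise (95% interval 5.13 to 6.31; limma adjusted p = 1.27e-12). Pdk1 had 10.33 ± 0.09 in ES cells and 8.90 ± 0.27 in fibroblasts, a 2.69-fold rise (95% interval 2.22 to 3.27; log2 difference 1.43 ± 0.13, limma adjusted p = 1.28e-07). Pfkl had 10.80 ± 0.05 in ES cells and 10.42 ± 0.09 in fibroblasts, a difference of 0.38 ± 0.07 (limma adjusted p = 1.09e-04) under the fold minimum. Of the 3 genes 2 were called, both higher, where 55.6% of all genes were called, 23.4% higher, or 33.3% with centred arrays, and 32.1% lower. With calls this common, the count of called members is no result about them.

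Against day-1 cells all 3 genes rose in both pluripotent lines. In iPS cells against day-1 cells Hk2 rose 8.74-fold (95% interval 7.88 to 9.69), Pdk1 4.22-fold (3.48 to 5.12) and Pfkl 2.69-fold (2.43 to 2.97). The limma adjusted p was 6.85e-13 for Hk2, 3.90e-09 for Pdk1 and 2.77e-10 for Pfkl. In ES cells against day-1 cells Pdk1 rose 9.91-fold (log2 difference 3.31 ± 0.13), Hk2 8.05-fold (7.26 to 8.93) and Pfkl 2.79-fold (2.52 to 3.08), with a limma adjusted p of 3.33e-11, 4.87e-13 and 1.38e-10. By size, Pdk1 in ES cells was number 120 and Hk2 in iPS cells number 118 from the top of their comparisons. All 3 genes were called higher in both. Over all genes, 44.2% were called in iPS cells, 17.6% higher and 26.6% lower, and 49.9% were called in ES cells, 20.4% higher and 29.5% lower. Centring the arrays raised the share called higher to 24.1% in iPS cells and to 29.1% in ES cells. Hk2 was also among the 1201 genes, or 12.6%, called higher in both pluripotent lines against both day-1 cells and fibroblasts. Both comparisons rest on the same 3 day-1 arrays. In the order of levels, neighbours whose difference missed an adjusted p of 0.05 were iPS and ES cells for Hk2 and Pfkl, and iPS cells and fibroblasts for Pdk1.

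**Figure D2:**
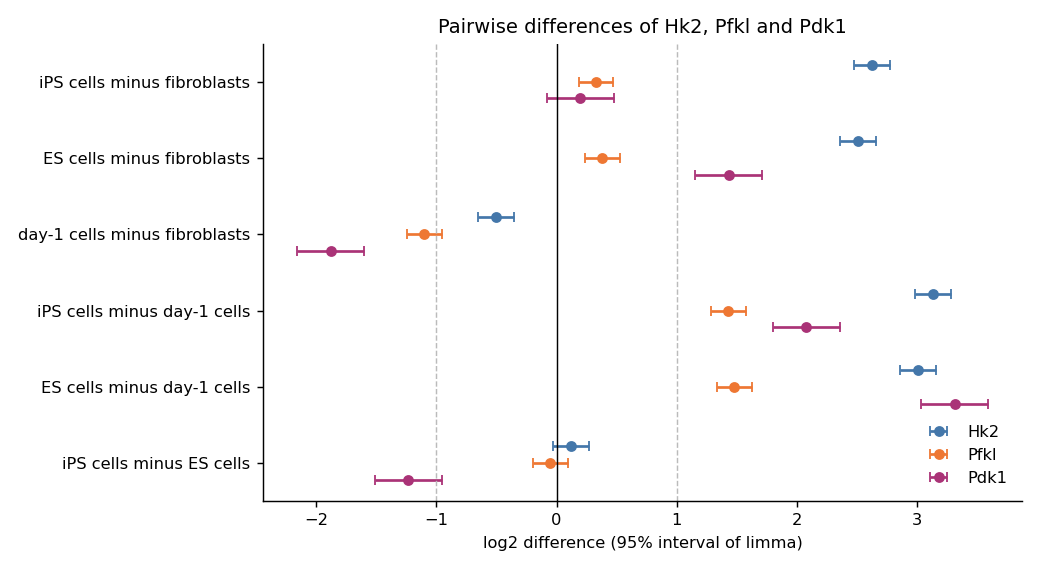
Log2 difference of Hk2, Pfkl and Pdk1 in the 6 pairwise comparisons (points) with the 95% interval of limma (bars), and dashed lines at the fold minimum of 1. Hk2 leads in both comparisons of pluripotent cells with fibroblasts, and Pdk1 is the one gene past the minimum between iPS and ES cells.

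Between the reprogrammed and the established line, 1 of the 3 genes was called. Pdk1 fell in iPS cells. It had 9.10 ± 0.09 in iPS cells and 10.33 ± 0.09 in ES cells, 2.35-fold lower (95% interval 1.94 to 2.85; log2 difference -1.23 ± 0.13, limma adjusted p = 4.82e-06). It was number 134 of 9539 from the most negative difference, where 6.9% of all genes were called, 4.44% higher and 2.45% lower, or 3.21% lower with centred arrays. Hk2 differed by 0.12 ± 0.07 (limma adjusted p = 0.161), with a 95% interval of -0.03 to 0.27. Pfkl differed by -0.05 ± 0.07 (limma adjusted p = 0.543; interval -0.20 to 0.09). Fibroblast markers also differed here, with 7 of 15 higher and Dcn lower in iPS cells, and a mean level per array of 8.91 to 9.03 in iPS cells and 7.73 to 8.16 in ES cells. Of 15 pluripotency markers, Tfcp2l1 was higher and Zfp42 lower in iPS cells, and their mean was 11.13 to 11.18 in iPS cells and 11.36 to 11.44 in ES cells. The part of either list in the Pdk1 difference was not tested.

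Each of the 3 enzymes has sister genes that do the same reaction. Hk1, which encodes the hexokinase of most adult tissues, had 8.83 ± 0.07 in iPS cells, 8.03 ± 0.12 in ES cells, 9.41 ± 0.04 in day-1 cells and 9.95 ± 0.09 in fibroblasts. It fell in iPS cells against fibroblasts by 1.12 on the log2 scale and in ES cells by 1.92, where Hk2 rose in both. The iPS call of Hk1 ended with centred arrays, at -0.88, and after quantile normalization, at -0.93. A further probe set shared by Hk1 and other symbols was not tested, and Hk3 and Hkdc1 were not analysed here. Pfkp, the platelet-type phosphofructokinase, had 10.58 ± 0.08 in iPS cells, 11.25 ± 0.07 in ES cells, 8.83 ± 0.10 in day-1 cells and 8.93 ± 0.15 in fibroblasts. It rose in both pluripotent lines against fibroblasts, by 1.65 ± 0.09 in iPS cells and by 2.31 ± 0.09 in ES cells, and it differed by -0.11 ± 0.09 in day-1 cells (limma adjusted p = 0.322). Pfkm, the muscle type, was under the fold minimum in every comparison, with 0.66 ± 0.09 in iPS cells, 0.37 ± 0.09 in ES cells and -0.06 ± 0.09 in day-1 cells against fibroblasts. Of the 3 phosphofructokinase genes, Pfkl was the one called in day-1 cells and Pfkp the one called in pluripotent cells against fibroblasts.

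Among the kinases of pyruvate dehydrogenase, Pdk2 had 6.81 ± 0.06 in iPS cells, 7.17 ± 0.24 in ES cells, 7.82 ± 0.13 in day-1 cells and 8.74 ± 0.10 in fibroblasts. It fell in both pluripotent lines against fibroblasts, with -1.93 ± 0.11 in iPS cells and -1.57 ± 0.11 in ES cells. Pdk3 differed by -1.03 ± 0.09 in iPS cells, a call that ended under both other scalings, and by -0.94 ± 0.09 in ES cells. Pdk4 was not analysed here. The complex itself ran the other way from Pdk2 and Pdk3. Pdha1, whose product carries the sites that the kinases modify, rose by 1.60 ± 0.07 in iPS cells and differed by 0.98 ± 0.07 in ES cells. Pdhb, its partner subunit, rose by 1.45 ± 0.10 in iPS cells and by 1.56 ± 0.10 in ES cells. Pdhx, which encodes another component of the complex, rose by 1.17 ± 0.08 and 1.30 ± 0.08 in the same lines. Of the phosphatases that reactivate the complex, Pdp2 rose in iPS cells (1.06 ± 0.09) and differed by 0.74 ± 0.09 in ES cells, while Pdp1 differed by -0.96 ± 0.09 and -0.92 ± 0.09. In the list of 9 measured genes of the complex and its regulators, 4 rose and 2 fell in iPS cells, 3 rose and 1 fell in ES cells, and in day-1 cells Pdk1 alone was called. Over all genes 21.8% rose and 29.6% fell in iPS cells, and 23.4% and 32.1% in the ES line. The median difference of the list was 0.78, 0.79 and 0.005 in iPS, ES and day-1 cells, against -0.35, -0.35 and 0.05 over all genes. With centred arrays 5 rose and 1 fell in iPS cells, and 6 rose and 1 fell in ES cells.

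**Figure D3:**
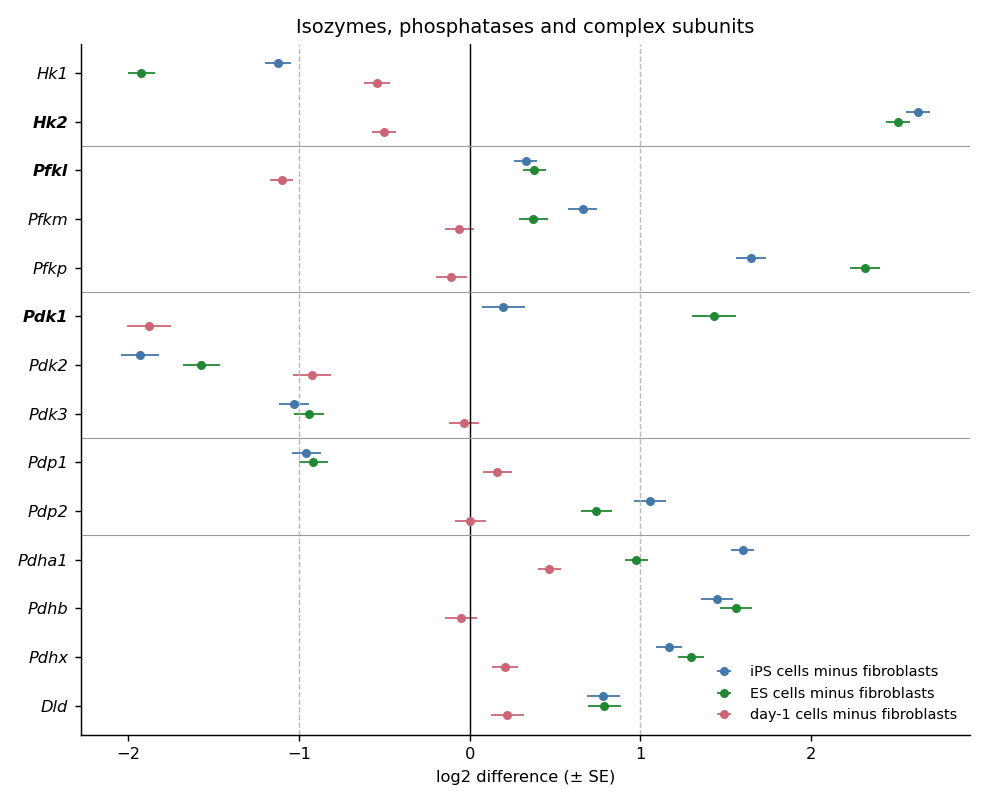
Log2 difference from fibroblasts (points, with the SE) in iPS cells, ES cells and day-1 cells for hexokinases, phosphofructokinases, pyruvate dehydrogenase kinases, phosphatases and subunits of the complex; dashed lines mark the fold minimum of 1. Hk2 and Hk1 lie on opposite sides of 0 in pluripotent cells, and Pfkl and Pdk1 are the genes beyond the minimum in day-1 cells.

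The wider pathway was read from lists of textbook genes. Their counts stand beside the shares of all genes called against fibroblasts, which were 21.8% higher and 29.6% lower in iPS cells, 23.4% and 32.1% in the ES line, and 3.46% and 4.33% in day-1 cells. Of 27 glycolysis enzymes 12 were measured, 10 of them besides Hk2 and Pfkl. Gpi1, Aldoa, Tpi1, Gapdh, Pgk1, Pgam1, Eno1, Pkm and Ldha were among those not analysed here. Since the table seems to hold varying probe sets only, the 12 are no full reading of the pathway. Of the 10 measured besides Hk2 and Pfkl, 3 rose and 1 fell in iPS cells against fibroblasts and 3 rose and 3 fell in ES cells. In day-1 cells limma called 0 of 10. With centred arrays 3 rose and 0 fell in iPS cells, where Hk1 was at -0.88, and 4 rose and 2 fell in ES cells, where the pyruvate kinase gene Pklr was at 1.08 and the enolase gene Eno2 at -0.83. By adjusted p alone, 2 of the 12 were higher and 6 lower in day-1 cells, where 31.1% and 26% of all genes were. Aldoc, a brain-type aldolase, rose in both pluripotent lines against fibroblasts (1.66 ± 0.15 in iPS cells, 1.69 ± 0.15 in ES cells), as did Ldhb, a lactate dehydrogenase subunit (1.29 ± 0.08 and 1.10 ± 0.08). Eno3, the muscle enolase, fell in ES cells (-1.69 ± 0.17). At the entry of glucose, the high-affinity transporter gene Slc2a3 had 12.75 ± 0.03 in iPS cells, 12.72 ± 0.10 in ES cells, 7.31 ± 0.16 in day-1 cells and 7.09 ± 0.17 in fibroblasts. Its rise of 5.66 ± 0.10 in iPS cells was larger than that of Hk2 in value. Slc2a3 was the sole riser of 10 measured transporters against fibroblasts in both lines, with 7 lower in iPS cells and 6 lower in ES cells. Under either other scaling 5 were lower in each line, since the lactate carrier gene Slc16a3 lost its call in iPS cells and Bsg, which encodes a partner of such carriers, lost it in both. Slc16a1, which encodes a lactate carrier, had 9.20 ± 0.03 in day-1 cells and 10.62 ± 0.32 in fibroblasts, and it was the only transporter called in day-1 cells (-1.42 ± 0.12, limma adjusted p = 7.28e-07).

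Enzymes that feed or oppose phosphofructokinase moved too. Pfkfb3, which makes its activator fructose 2,6-bisphosphate, fell in day-1 cells against fibroblasts (-1.56 ± 0.10) and in iPS cells (-1.55 ± 0.10), and differed by -0.78 ± 0.10 in ES cells. Pfkfb4, which makes the same activator, had 8.14 ± 0.15 in day-1 cells and 7.29 ± 0.07 in fibroblasts, and its difference of 0.85 ± 0.11 (limma adjusted p = 3.32e-05) was under the fold minimum. It differed by -0.48 ± 0.11 in the iPS line and by -0.70 ± 0.11 in ES cells. Tigar, whose product removes that activator, rose in iPS cells (1.98 ± 0.06) and in ES cells (1.48 ± 0.06), with 0.34 ± 0.06 in day-1 cells. Of 9 citric acid cycle enzymes, 1 rose in each comparison with fibroblasts and limma called 0 lower, Idh2 in iPS cells (1.60) and in day-1 cells (1.25) and Suclg2 in ES cells (1.01). Under either other scaling 4 rose in iPS cells, Idh3a, Suclg1 and Suclg2 besides Idh2, and 2 in ES cells, Suclg1 and Suclg2. At adjusted p alone, 5 of these 9 were higher and 2 lower in iPS cells, 6 and 3 in the ES line, and 4 and 3 in day-1 cells. Of all genes, 42% were higher and 52.2% lower by that rule in iPS cells, 43.2% and 51.7% in the ES line, and 31.1% and 26% in day-1 cells. Of 7 pentose phosphate enzymes, 2 rose and 2 fell in each pluripotent line and limma called 0 in day-1 cells, with 2 higher and 1 lower by the adjusted p alone. With centred arrays 1 fell in each line, as Pgls lost its call in iPS cells (-0.99) and Pgd in ES cells (-0.77). Of 9 glycogen enzymes, 5 fell in iPS cells, or 4 under either other scaling, 6 fell in ES cells and 1 in day-1 cells. Of 3 measured gluconeogenesis genes, 2 fell in iPS cells, 2 in ES cells, or 1 under either other scaling, and 1 in day-1 cells, Pcx (-1.30).

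Hypoxia response genes include Hk2 and Pdk1 by textbook knowledge, and 29 of 41 listed were measured. In day-1 cells against fibroblasts 11 of the 29 fell and 1 rose, and without Hk2 and Pdk1 the count was 10 of 27 fallen. Over all genes 4.33% were called lower and 3.46% higher in that comparison, and the list was read with earlier results of these data known. By adjusted p alone, 24 of the 29 were lower and 2 higher, against 26% and 31.1% of all genes. The median difference of the list was -0.80, against 0.05 over all genes. Higd1a, a mitochondrial protein gene, had 6.34 ± 0.02 in day-1 cells and 9.30 ± 0.31 in fibroblasts (-2.95 ± 0.12). Adm, the vasodilator adrenomedullin, had 8.44 ± 0.05 in day-1 cells and 11.36 ± 0.11 in fibroblasts (-2.92 ± 0.10). Bnip3, a mitophagy receptor gene, had 8.39 ± 0.12 in day-1 cells and 11.14 ± 0.27 in fibroblasts (-2.75 ± 0.12). Egln3, an oxygen-sensing prolyl hydroxylase gene, differed by -2.39 ± 0.13, and the one riser, the carbonic anhydrase gene Car12, by 1.22 ± 0.12. Car12 was not among the calls once the lowest 25% of genes by mean level were left out, and the same count of 11 fell. The labels used here give no oxygen level for any culture.

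**Figure D4:**
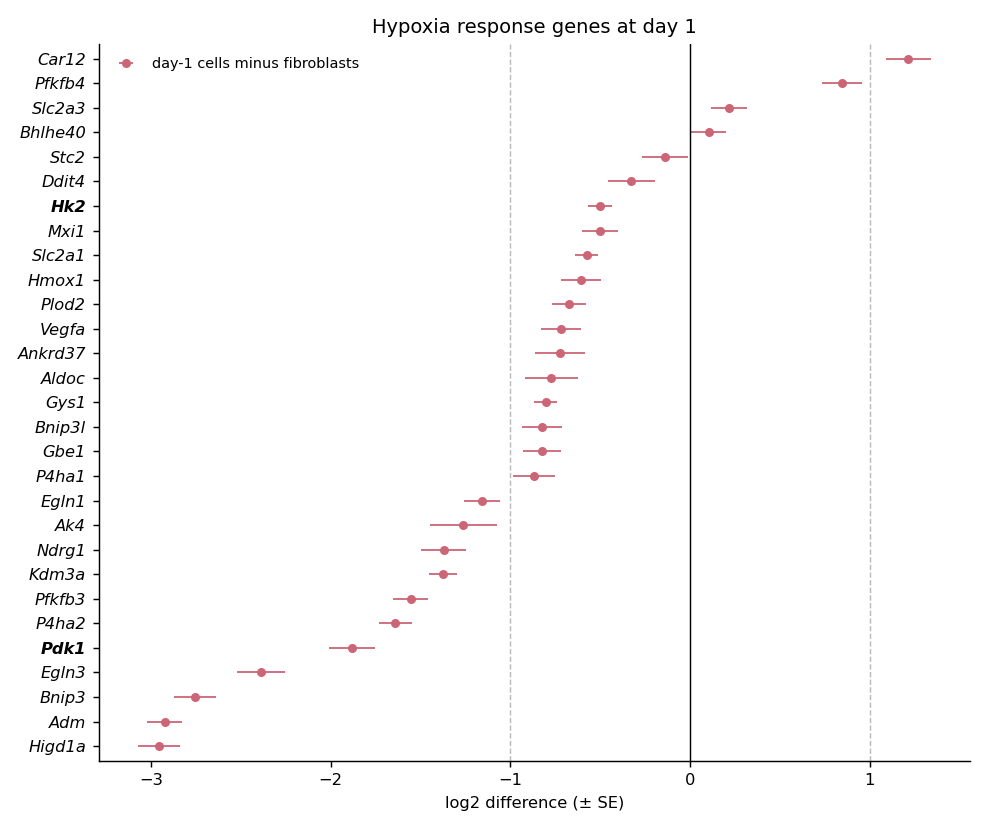
Log2 difference of 29 hypoxia response genes between day-1 cells and fibroblasts (points, with the SE), from highest to lowest, with Hk2 and Pdk1 in bold and dashed lines at the fold minimum of 1. Higd1a, Adm, Bnip3, Egln3 and Pdk1 are the 5 lowest, and Car12 is the one gene above the minimum.

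In pluripotent cells the same list split. Against fibroblasts 5 of the 29 rose and 14 fell in iPS cells, and 6 rose and 14 fell in ES cells. Over all genes 21.8% rose and 29.6% fell in iPS cells, and 23.4% rose and 32.1% fell in ES cells. With centred arrays 11 of the 29 fell in ES cells, as Egln3, Ndrg1 and Hmox1 lost their calls. Without Hk2 and Pdk1, 4 of the 27 rose in each line. Like Hk2, the histone demethylase gene Kdm3a rose in both lines against fibroblasts, with values of 1.19 ± 0.08 in the iPS line and 1.79 ± 0.08 in ES cells, and it fell in day-1 cells (-1.38 ± 0.08). The mitochondrial adenylate kinase gene Ak4 rose by 1.37 ± 0.18 in iPS cells, rose by 1.10 ± 0.18 in ES cells, and fell in day-1 cells (-1.26 ± 0.18). Adm fell in both lines against fibroblasts, with -4.18 ± 0.10 in iPS cells and -4.43 ± 0.10 in ES cells. The mean level of the list per array was 8.70 to 8.77 in iPS cells, 8.82 to 8.84 in ES cells, 8.43 to 8.48 in day-1 cells and 9.26 to 9.51 in fibroblasts. The fibroblast arrays were thus the highest and the most spread.

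Of the regulators, the hypoxia-inducible factor gene Hif1a had 10.34 ± 0.07 in iPS cells, 10.19 ± 0.04 in ES cells, 11.46 ± 0.02 in day-1 cells and 12.13 ± 0.12 in fibroblasts. Epas1, its relative, had 8.34 ± 0.12 in iPS cells, 10.06 ± 0.15 in ES cells, 6.97 ± 0.05 in day-1 cells and 7.70 ± 0.28 in fibroblasts. Hif1a fell in both pluripotent lines against fibroblasts and differed by -0.67 ± 0.07 in day-1 cells, and Epas1 rose in ES cells (2.36 ± 0.13) and was lower in iPS than in ES cells (-1.72 ± 0.13). Mycn, a Myc family gene, rose by 3.64 ± 0.11 in iPS cells and 5.17 ± 0.11 in ES cells against fibroblasts and was lower in iPS than in ES cells (-1.53 ± 0.11). Myc went the other way in iPS cells, where it fell against fibroblasts (-1.50). In ES cells it was not called, at -0.24 as deposited and at 0.09 with centred arrays. Txnip, which encodes an inhibitor of glucose uptake, fell in day-1 cells (-1.22 ± 0.12) and in iPS against ES cells (-1.15 ± 0.12). Against fibroblasts 5 of the 16 measured regulators rose and 5 fell in iPS cells, and 6 rose and 5 fell in ES cells. Over all genes 21.8% rose and 29.6% fell in iPS cells, and 23.4% and 32.1% in the ES line. With centred arrays Txnip gained a call in ES cells (1.10), and Vhl (-0.76) and Egln3 (-0.86) lost theirs. Of the 16, limma called 4 lower and 0 higher in iPS against ES cells, Epas1, Mycn, Myc and Txnip, where 2.45% and 4.44% of all genes were called. At adjusted p alone 8 were lower and 1 higher, where 27.7% and 30% of all genes were. Hif1a was named after its values were seen, as were the list members named for a call that another scaling ends or makes.

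Genes whose levels ran most like each of the 3 were found by Pearson's r over the 12 arrays. Since the arrays fall into 4 groups, r mainly describes the order and spacing of the group means. Closest to Hk2 were the chloride transporter gene Clcn3 (r = 0.997), the small nucleolar RNA gene Snord22, Taf1d of the RNA polymerase I machinery, the DNA methylation cofactor Dnmt3l and Stxbp2. Closest to Pfkl were Lamtor2 of the lysosomal Ragulator complex (r = 0.990), the kinase gene Dapk1, Nampt of NAD salvage, the CTP synthase gene Ctps and the splicing regulator Tra2a. Closest to Pdk1 were the RNA-binding protein gene Msi2 (r = 0.994), Trp53inp1, Crebrf, Gigyf2 and Ttc37. Msi2 had 9.65 ± 0.03 in iPS cells, 10.43 ± 0.04 in ES cells, 8.63 ± 0.03 in day-1 cells and 9.60 ± 0.07 in fibroblasts, so iPS cells and fibroblasts overlapped for it as for Pdk1. The lowest r among these 15 genes was 0.983.

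**Figure D5:**
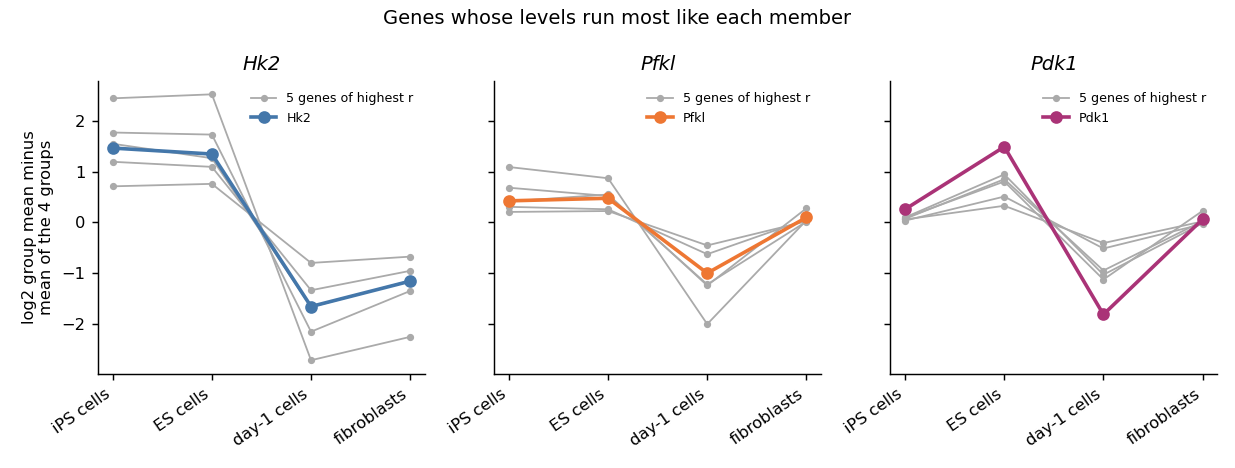
Group means of Hk2, Pfkl and Pdk1 (coloured) and of the 5 genes with the highest Pearson r to each over 12 arrays (grey), as log2 levels minus the mean of the 4 groups. The genes near Hk2 separate the pluripotent lines from the rest, those near Pfkl dip in day-1 cells, and those near Pdk1 also peak in ES cells.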

How the data were processed

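The authors deposited 1 table of log2 levels per probe set for 12 arrays, labelled with an Affymetrix kit for whole transcripts according to the labels' protocols. Summarisation and normalization are not given in the sources used here, and log2 was inferred from the range of 2.43 to 13.64. Array medians were 7.98 to 8.06 in iPS cells, 7.89 to 7.98 in ES cells, 8.25 to 8.29 in day-1 cells and 8.25 to 8.29 in fibroblasts. Of 10360 probe sets, 9542 had 1 gene symbol, 344 several and 474 none. The brightest probe set per symbol was kept, which left 9539 genes.

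limma 3.58.1 in R 4.3.3 was fitted to all 12 arrays at once with 1 mean per group. Benjamini-Hochberg adjustment ran over 9539 genes. The fit was also run on simulated data with 200 changed genes, far fewer than were called between pluripotent cells and the other groups. There the call rule found 42% to 56% of log2 differences of 1 and 99% to 100% of those of 1.5. The few arrays limit precision, with a median SE of 0.09. Members and lists were chosen with earlier results of these data known. Named genes are the members, their paralogs, the 5 genes of highest r to each, up to 4 called genes per list and comparison by size, exceptions that complete a count, and Pou5f1. Not all of them are printed. Promoters were searched in Python 3.11.15. The 21 alternatives are in the closing section.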

Additional observations from a re-analysis of the deposited data

How the results depend on the processing

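The 18 differences of Hk2, Pfkl and Pdk1 were recomputed under 21 alternatives, 12 of which leave out 1 array. Many of these alternatives cannot move a difference, so its sign was fixed there in advance. They are the filter of low genes, the fit of only the groups compared, the trended prior, the replicate block and the dropped fold minimum. The mean over probe sets and a left-out array of a group not compared also leave it as it is. None of the 378 values changed sign, and 375 kept their side of the call. The other 3 arose when the fold minimum was dropped, which made calls of Pfkl in iPS cells (0.33) and ES cells (0.38) and of Hk2 in day-1 cells (-0.50) against fibroblasts. The Pdk1 difference between iPS cells and fibroblasts, not called, ran from 0.05 to 0.32 over the left-out arrays and was 0.32 without fibroblast replicate 3 (limma adjusted p = 0.027), and 0.40 after quantile normalization (limma adjusted p = 0.00991). Over all its alternatives the adjusted p ran from 0.00501 to 0.663. The Hk2 difference between iPS and ES cells had a limma adjusted p of 0.0374 after quantile normalization (0.18) and passed under none of the other 20. The replicate numbers did not pair the arrays, since 0 of 18 same-numbered pairs correlated over 0.1 (-0.208 to 0.064). With the replicate block the day-1 difference of Pdk1, which the block cannot move from -1.88, had a limma adjusted p of 1.17e-06. No call of the 3 genes changed with it. Without a fold minimum, genes higher and lower numbered 4004 and 4981 in iPS cells against fibroblasts, 4121 and 4929 in ES cells against fibroblasts, 2966 and 2483 in day-1 cells against fibroblasts, 3897 and 4954 in iPS against day-1 cells, 4027 and 4887 in ES against day-1 cells, and 2858 and 2644 in iPS against ES cells. Without the lowest 25% of genes by mean, 248 genes were lower in day-1 cells against fibroblasts, where 413 were with all genes. In iPS against ES cells 143 were lower, where 234 were with all genes. Both counts fell by a larger share than the 25% of genes left out. Centring the arrays moved the median gene of iPS cells against fibroblasts to -0.10, from -0.35 as deposited, and the share of calls that were higher to 55.5%, against 42.4%. That share was 50.8% after quantile normalization. For ES cells against fibroblasts it was 58.1% centred, 51.9% after quantile normalization and 42.2% as deposited. For iPS against day-1 cells it was 54.4% centred and 39.8% as deposited, and for ES against day-1 cells 57.1% and 40.9%. For iPS against ES cells it was 52.3% centred and 64.4% as deposited.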
